A study of Mus musculus with 29 samples.

Results

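The homeobox gene Dlx3, whose protein controls transcription as epidermal cells mature and hair forms, was deleted in the epidermis of adult mice, and RNA of the epidermis was sequenced 3 days after tamoxifen. The libraries described here are the 8 from vehicle-treated skin, of 29 in the series: 4 from mice with the deletion (called icKO, as in the labels) and 4 from control mice (WT). Deletion relied on a Cre recombinase that tamoxifen activates and that is driven by the promoter of keratin 14, a keratin of basal keratinocytes, so hair follicle and interfollicular keratinocytes can both be affected while other skin cells are not targeted. Both groups were labelled as 3 days after tamoxifen and as mixed background, the mice were at postnatal days 42 to 46, and the other day 3 epidermis libraries came from skin given an inhibitor of the transcription factor STAT3. The sources used here do not give which exon of Dlx3 was flanked for deletion, the route of tamoxifen at day 3, the genotype of the WT mice beyond that word, or whether each library was 1 animal. The p values therefore measure the spread between libraries, pooled over the 15 of day 3 epidermis, which may in part be technical.

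Epidermis renews itself from dividing basal cells, whose daughters stop dividing, move outward and make keratins, lipids, junctions and proteases before they die as the cornified barrier. In damaged or inflamed epidermis, keratinocytes divide more, make stress proteins and change their junctions, retinoid enzymes and secreted proteases. DLX proteins bind DNA through a homeodomain, whose common core letters are TAATT, and act in skin, hair, teeth and bone.

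Levels are RPKM, reads scaled to the length of the gene and to the mapped reads of the library, and changes are differences of log2(RPKM + 1), icKO minus WT, with a standard error (SE); the added 1 RPKM understates the change of low genes. A gene is said to rise or fall only where its adjusted p was below 0.05 in limma, fitted over all 15 day 3 epidermis libraries, with Benjamini-Hochberg adjustment over 13095 genes that reached 1 RPKM in at least 4 of the 8 libraries. The columns carry no replicate numbers, so libraries are lettered a to d within a group as names only. Because these are bulk samples, fewer cells of a type and less RNA per cell cannot be told apart.

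The 8 libraries held 48.9 to 61.7 M alignments. Dlx3 (chr11:95120119-95125296, plus strand, mm10) was at 3.04, 7.13 and 7.21 RPKM in WT a, c and d, 0.95 RPKM in the library labelled WT b, and 1.5, 1.58, 2.22 and 1.29 RPKM in icKO a to d. The library labelled WT b was thus below every icKO library, against its label, while without it the groups did not overlap. Over all 8 libraries the change of Dlx3 was -0.87 ± 0.34 (log2, SE, adjusted p = 0.108, limma), which did not pass. Without the library labelled WT b and icKO c it was -1.40 ± 0.22 (log2, SE, adjusted p = 0.000948, limma). These were the lowest WT and the highest icKO library for Dlx3, so leaving them out widens the difference of this gene by itself. That p value is therefore no test of the loss of Dlx3. Those 2 libraries also lay between the groups at many other genes, and the counts of each list are given without them too. Libraries icKO a and b were closer to each other than the other pairs within either group, with a root mean square difference of 0.1 (log2) against 0.243 to 0.568. They differed by 3.69 times the spread that counting alone gives, against 18.75 to 71.17 times for the other pairs. They were kept as 2 libraries, which does not show that they were 2 animals. Sex was not balanced: Ddx3y, on the Y chromosome, was at 10.7 to 11.3 RPKM in WT a, WT d and the library labelled WT b, and Xist, which female cells make, at 17.6 to 18.7 RPKM in WT c and icKO a, b and d, while icKO c held 7.2 RPKM of Xist and 5.88 RPKM of Ddx3y. Tissue under the epidermis was present in each library, with summed levels of 30 skeletal muscle genes at 15800 to 23800 RPKM in WT and 13000 to 22700 RPKM in icKO, and of 18 fibroblast genes at 2760 to 16800 RPKM in WT and 5540 to 12800 RPKM in icKO.

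In icKO epidermis 1194 genes rose (9.12% of those tested) and 485 fell (3.70%), 1679 in all (12.8%), of which 628 changed by at least 1.5-fold. The values of the 4 WT and 4 icKO libraries did not overlap at 1474 genes (11.3%). The filter fixed this for 33 genes that passed it through icKO alone, every WT library being below 1 RPKM, and for 9 that passed it through WT alone, and 30 and 8 of these are among the calls. Without the library labelled WT b and icKO c, 2314 genes rose (17.7%) and 1255 fell (9.58%), and 4981 genes did not overlap (38.0%). Fitted on the 8 libraries alone, limma called 91 rises and 15 falls, and 9 of the 36 gene lists described below held a call. The fit of 15 libraries pools the spread of all groups, and vehicle WT was the most spread. Its pairs had root mean square differences of 0.323 to 0.568 (log2), and vehicle icKO pairs 0.1 to 0.356. With inhibitor they were 0.132 to 0.187 in WT and 0.0967 to 0.291 in icKO. Averaging icKO a with b, and the matching close pair of inhibitor libraries, gave 216 rises and 34 falls, with a call in 21 lists. A term for sex gave 468 rises and 556 falls, and 555 of the 1679 genes were called under it. That term rests on WT c and icKO c, whose Xist and Ddx3y differed from those of the other libraries of their groups. No gene called both ways changed sign in any of these settings. Quantile normalization gave 832 rises and 1030 falls, so that 44.7% of calls were rises against 71.1%, and moved the median change of all tested genes from 0.04 to -0.03 (log2). The counts of a list under any of these settings are to be read against these counts, each over 13095 genes.

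**Figure D1:**
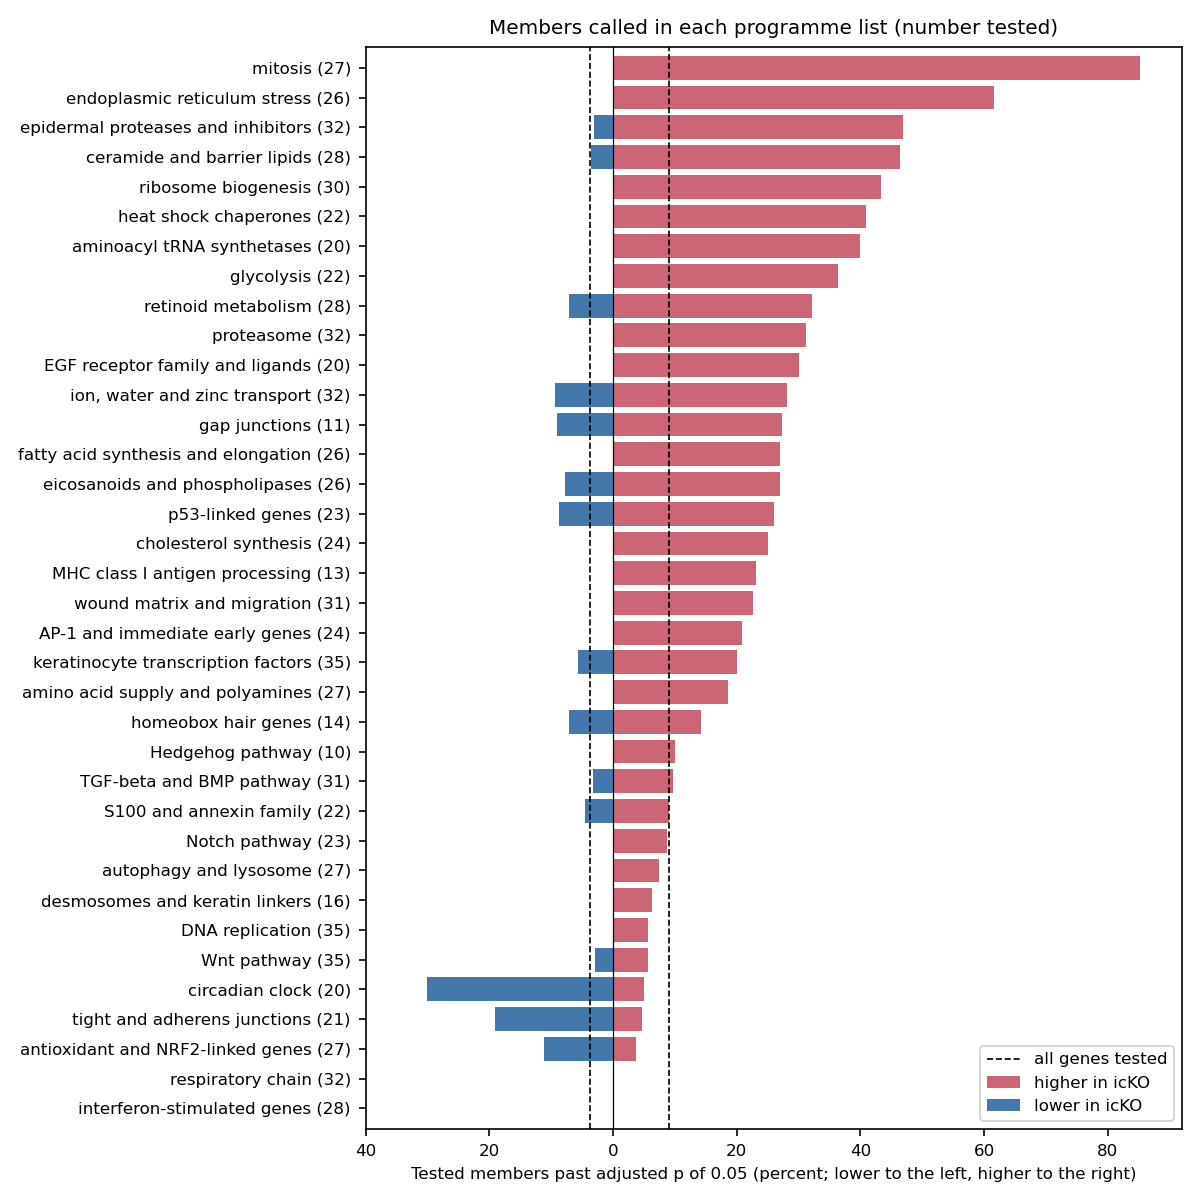
Percent of tested members of each gene list that rose (red, to the right) or fell (blue, to the left) in icKO epidermis at an adjusted p below 0.05, with the number tested in brackets and dashed lines at the share among all genes tested (9.12% rises, 3.70% falls). Mitosis genes stand at the top with 23 of 27 higher, and the circadian clock list has the largest share of falls, 6 of 20.

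Genes of mitosis rose, and few genes of DNA replication did. Of 27 tested genes of mitosis, 23 rose and 0 fell, with a median change of 0.71 (log2) against 0.04 for all genes, whereas of 35 tested genes of DNA replication 2 rose (Rrm2 and Ccne1, named after their values were seen) and the median was 0.18. Among all genes tested 9.12% rose, against 85.2% in the mitosis list and 5.71% in the replication list. The difference between these lists was not tested. Many genes of mitosis are known to carry CCAAT boxes, bound by NF-Y, and an element with the letters TTTGAA, called CHR, in their promoters. The promoters of the 3 mitosis genes with the lowest adjusted p for which RefSeq gave one are shown because they range from many matches to none. They run from 250 bases before to 50 after the start of the gene, 5′ to 3′ on the gene's strand in GRCm38.p6, with matches to CCAAT or TTTGAA on either strand (ATTGG and TTCAAA on the other strand) in capitals. The window of Top2a lies at chr11:99024140-99024439, minus strand, Cenpa at chr5:30666636-30666935, plus strand, and Nuf2 at chr1:169531415-169531714, minus strand.
Top2a: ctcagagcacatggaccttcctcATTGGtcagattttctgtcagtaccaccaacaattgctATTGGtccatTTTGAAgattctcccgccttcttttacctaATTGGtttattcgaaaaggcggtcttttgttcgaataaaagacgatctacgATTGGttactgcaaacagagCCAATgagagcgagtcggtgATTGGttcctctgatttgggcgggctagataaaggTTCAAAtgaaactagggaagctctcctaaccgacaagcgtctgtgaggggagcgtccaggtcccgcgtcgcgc
Cenpa: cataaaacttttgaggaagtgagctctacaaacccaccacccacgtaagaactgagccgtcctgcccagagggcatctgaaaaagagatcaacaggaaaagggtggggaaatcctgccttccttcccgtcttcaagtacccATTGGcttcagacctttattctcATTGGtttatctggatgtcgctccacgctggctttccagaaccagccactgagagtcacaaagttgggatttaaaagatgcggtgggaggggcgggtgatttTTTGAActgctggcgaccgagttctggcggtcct
Nuf2: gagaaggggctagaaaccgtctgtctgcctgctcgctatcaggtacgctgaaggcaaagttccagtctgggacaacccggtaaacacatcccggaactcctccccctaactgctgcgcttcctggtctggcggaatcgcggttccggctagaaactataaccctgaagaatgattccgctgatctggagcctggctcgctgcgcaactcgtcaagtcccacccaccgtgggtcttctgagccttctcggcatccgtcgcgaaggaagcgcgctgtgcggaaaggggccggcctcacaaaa

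The Top2a window held 6 matches to CCAAT and 2 to TTTGAA, the Cenpa window 2 and 1, and the Nuf2 window 0 of either. CCAAT was found in 21 of the 26 mitosis promoters available (80.8%), in 16 of 28 DNA replication promoters (57.1%) and in 37.9% of 27025 mouse promoters of the same length. TTTGAA was found in 20 of 26 mitosis promoters (76.9%), in 4 of 28 DNA replication promoters (14.3%) and in 18.1% of all. These are matches of letters, not measured binding.

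Top2a, the topoisomerase that untangles chromosomes before they separate, was at 5.04, 6.04 and 5.09 RPKM in WT a, c and d, 7.07 RPKM in the library labelled WT b, and 11.7, 11.3, 7.39 and 13.4 RPKM in icKO a to d. The groups did not overlap, with icKO c the lowest icKO library and the library labelled WT b the highest of its group, and Top2a rose by 0.80 ± 0.16 (log2, SE, adjusted p = 0.00929). Cenpa, the histone variant of centromeres, was at 3.93, 4.27 and 2.82 RPKM in WT a, c and d, 6.09 RPKM in the library labelled WT b, and 9.11, 8.79, 6 and 10.6 RPKM in icKO a to d. Cenpa rose by 0.88 ± 0.18 (log2, SE, adjusted p = 0.0104). Here icKO c lay below the library labelled WT b, so the groups overlapped by those libraries alone. Nuf2, of the kinetochore, rose by 0.59 ± 0.12 (log2, SE, adjusted p = 0.011), and the cyclin gene Ccna2 by 0.89 ± 0.19 (log2, SE, adjusted p = 0.0115). Without the library labelled WT b and icKO c, 26 of the 27 mitosis genes rose and 5 of the 35 replication genes, against 17.7% of all genes tested. With a term for sex 0 members of either list were called, where 468 of all 13095 genes rose. The median of the mitosis list was then 0.54 and that of the replication list -0.03. In the fit of the 8 libraries alone and with close pairs averaged neither list had a call.

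**Figure D2:**
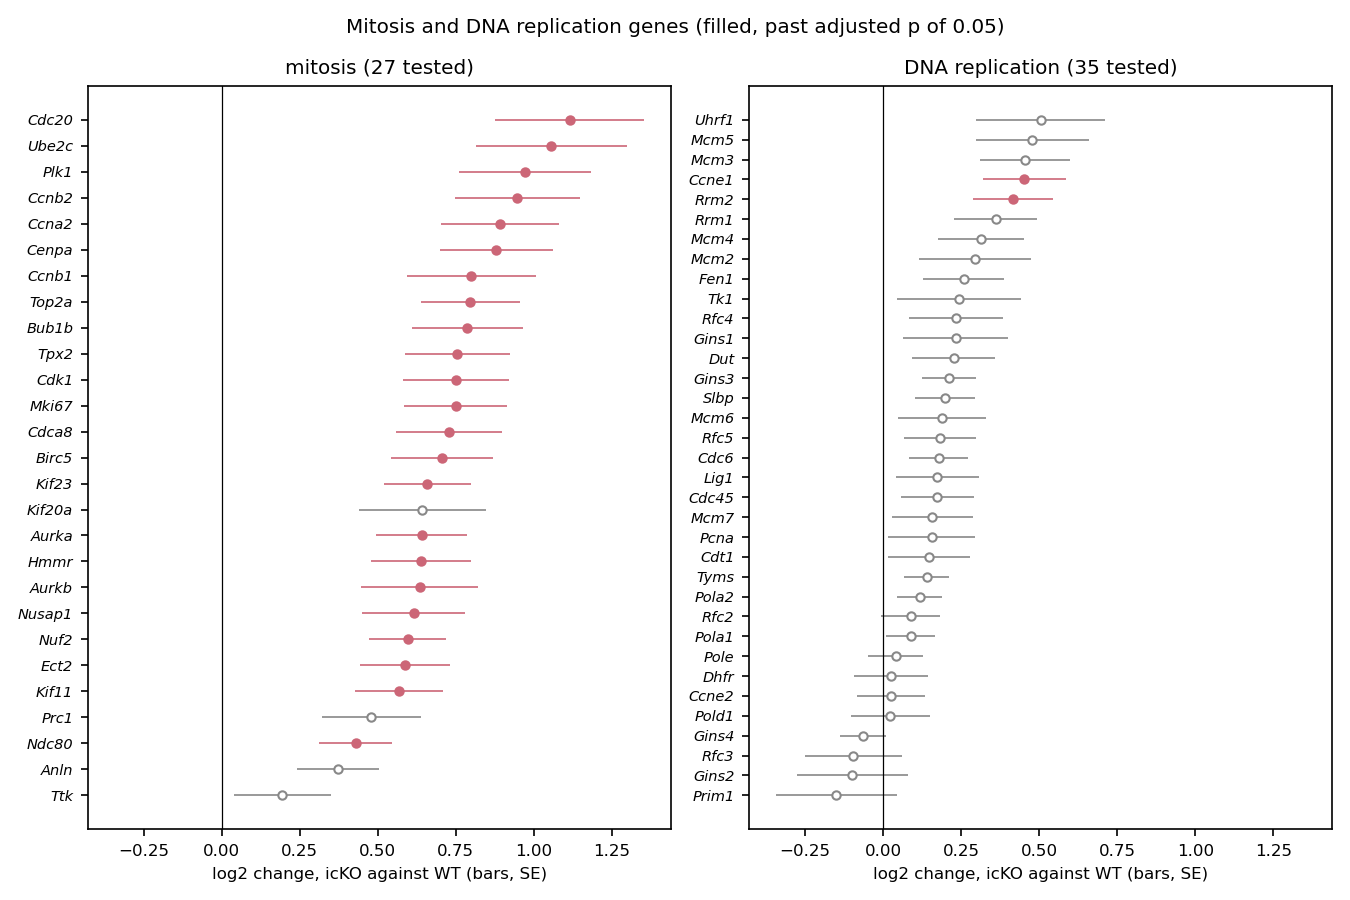
Change of each tested mitosis gene (left) and DNA replication gene (right), as log2(RPKM + 1) of icKO minus WT on the horizontal axis, with bars for the SE and filled points for genes past an adjusted p of 0.05. In the mitosis list 23 of 27 points are filled and all lie above 0; in the replication list 2 of 35 are.

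The machinery that makes proteins rose in part. Of 30 ribosome biogenesis genes 13 rose and 0 fell (median 0.27), against 9.12% rises among all genes tested. In 20 aminoacyl tRNA synthetases, which load amino acids onto tRNA, 8 rose and 0 fell (median 0.22). Ddx21, a helicase of ribosomal RNA processing, was at 13.2, 12.9 and 11.2 RPKM in WT a, c and d, 12.8 RPKM in the library labelled WT b, and 18.6, 18.1, 15 and 18.1 RPKM in icKO a to d. Ddx21 rose by 0.45 ± 0.07 (log2, SE, adjusted p = 0.00358) with no overlap. The ribosome assembly genes Rrs1, Nolc1 and Heatr1 rose by 0.40, 0.49 and 0.31 (log2, adjusted p = 0.00475, 0.00508 and 0.00947), and the groups did not overlap for any of them. The synthetase genes Rars and Cars, for arginine and cysteine, rose by 0.53 and 0.32 (log2, adjusted p = 0.0142 and 0.0146), and Aars and Yars, for alanine and tyrosine, by 0.29 and 0.21 (log2, adjusted p = 0.013 and 0.0184). With a term for sex 2 ribosome biogenesis genes and 1 synthetase gene rose, and the medians were 0.10 and 0.14. Without the library labelled WT b and icKO c, 20 and 11 rose, against 17.7% of all genes tested.

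Among 27 genes of amino acid supply and polyamines, 5 rose and 0 fell, against 9.12% rises among all genes tested. Slc7a5, which carries large neutral amino acids into the cell, was at 9.83, 8.16 and 5.9 RPKM in WT a, c and d, 8.68 RPKM in the library labelled WT b, and 17.3, 17.8, 12.4 and 14.4 RPKM in icKO a to d. No icKO library was as low as any WT library, and Slc7a5 rose by 0.86 ± 0.15 (log2, SE, adjusted p = 0.00502). Slc7a1, a carrier of basic amino acids, rose by 0.44 ± 0.08 (log2, SE, adjusted p = 0.00501), and Srm, which makes spermidine, by 0.38 ± 0.09 (log2, SE, adjusted p = 0.016). Smox, which oxidizes spermine, was at 8.67, 8.65 and 7.26 RPKM in WT a, c and d, 17.9 RPKM in the library labelled WT b, and 28, 27.1, 15.8 and 29.9 RPKM in icKO a to d. The library labelled WT b lay above icKO c, and over all libraries Smox rose by 1.22 ± 0.23 (log2, SE, adjusted p = 0.00685). The fifth rise was Mthfd2, a mitochondrial folate enzyme.

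Protein folding and breakdown genes rose in part. Of 26 genes of the endoplasmic reticulum stress response, 16 rose and 0 fell (median 0.30), against 9.12% rises among all genes tested. The groups did not overlap at 16, against 11.3% of all genes tested. With a sex term 9 rose and the median was 0.30, in the fit of the 8 alone 0 rose, and with close pairs averaged 1 rose. Hyou1, a chaperone of the endoplasmic reticulum, was at 16.5, 13.1 and 13.2 RPKM in WT a, c and d, 17 RPKM in the library labelled WT b, and 25.5, 26.2, 21.4 and 20.1 RPKM in icKO a to d. Hyou1 rose by 0.61 ± 0.10 (log2, SE, adjusted p = 0.00465). Manf, a secreted stress protein, was at 22.6, 24.8 and 24.1 RPKM in WT a, c and d, 33.4 RPKM in the library labelled WT b, and 45, 42.1, 35.9 and 34 RPKM in icKO a to d. Manf rose by 0.57 ± 0.12 (log2, SE, adjusted p = 0.01); icKO c and d lay just above the library labelled WT b. Pdia6, which shuffles disulfide bonds, rose by 0.42 ± 0.09 (log2, SE, adjusted p = 0.0104), and Syvn1, the ubiquitin ligase that disposes of misfolded proteins, by 0.32 ± 0.07 (log2, SE, adjusted p = 0.0105). Calr and Pdia3, which also load MHC class I molecules, rose by 0.45 and 0.31 (log2, adjusted p = 0.0146 and 0.0366). Of 13 genes of MHC class I antigen processing they and the proteasome activator Psme2 (0.45 ± 0.10, log2, SE, adjusted p = 0.0146) were the 3 that rose, and 0 fell.

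Of 22 heat shock chaperones 9 rose and 0 fell (median 0.22), among them Dnaja1 by 0.34 ± 0.06 (log2, SE, adjusted p = 0.00527), Hspa4 by 0.35 ± 0.07 (log2, SE, adjusted p = 0.00773), the chaperonin subunit Cct3 by 0.36 ± 0.08 (log2, SE, adjusted p = 0.0139) and Hsph1 by 0.69 ± 0.16 (log2, SE, adjusted p = 0.0147). Of 32 proteasome genes 10 rose and 0 fell (median 0.21), and beside both lists the share of rises among all genes tested was 9.12%. Psmd11, a lid subunit, was at 29.4, 34.1 and 31.3 RPKM in WT a, c and d, 33.3 RPKM in the library labelled WT b, and 45, 44.2, 37.9 and 47.2 RPKM in icKO a to d. Psmd11 rose by 0.43 ± 0.08 (log2, SE, adjusted p = 0.00512), and Psmd12, Psme3 and Psmd2 rose by 0.25 to 0.29 (log2). With the library labelled WT b and icKO c left out 21 proteasome genes and 10 chaperones rose, against 17.7% of all genes tested, while with a sex term the counts were 0 and 1. By contrast in count, 0 of 32 genes of the mitochondrial respiratory chain were called in limma (median 0.01), and 1 had an unadjusted p below 0.05; without the 2 libraries 2 rose.

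Lipid synthesis genes rose in part. Of 24 cholesterol synthesis genes 6 rose and 0 fell (median 0.27), against 9.12% rises among all genes tested. Cyp51, which removes a methyl group from lanosterol, was at 37.7, 32.9 and 36.8 RPKM in WT a, c and d, 35.6 RPKM in the library labelled WT b, and 49.3, 50.8, 40.8 and 56.9 RPKM in icKO a to d. The groups did not overlap, and the rise was 0.45 ± 0.09 (log2, SE, adjusted p = 0.00756). Sqle and Idi1, earlier enzymes of the pathway, rose by 0.57 and 0.48 (log2, adjusted p = 0.018 and 0.0143). In these 3 genes the library labelled WT b did not lie between the groups. With a sex term 1 cholesterol gene was called.

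Of 26 genes of fatty acid synthesis and elongation 7 rose and 0 fell, against 9.12% rises among all genes tested. Fabp5, the fatty acid binding protein of epidermis, was at 363, 376 and 282 RPKM in WT a, c and d, 467 RPKM in the library labelled WT b, and 1092, 1079, 595 and 1194 RPKM in icKO a to d. It rose by 1.38 ± 0.22 (log2, SE, adjusted p = 0.00336), with every icKO library above every WT library. Elovl3 and Elovl4, which lengthen fatty acids, rose by 1.47 ± 0.19 (log2, SE, adjusted p = 0.00215) and 0.79 ± 0.15 (log2, SE, adjusted p = 0.00786), and Slc27a4, which takes up fatty acids, by 0.70 ± 0.13 (log2, SE, adjusted p = 0.00687). Elovl3 is also a marker of sebaceous glands, whose 18 listed genes summed to 1150 to 2110 RPKM in WT and 1430 to 2310 RPKM in icKO libraries, with 7 of 17 tested higher; its part in the Elovl3 result was not tested. After quantile normalization 6 genes of the list rose and 3 fell.

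Of 28 genes of ceramides and other barrier lipids 13 rose and 1, Aloxe3 (named after its value was seen), fell, with a median of 0.28. Among all genes tested the shares were 9.12% and 3.70%. Degs2, which hydroxylates ceramides, was at 1.6, 0.601 and 0.475 RPKM in WT a, c and d, 1.54 RPKM in the library labelled WT b, and 6.22, 5.74, 3 and 5.5 RPKM in icKO a to d. Degs2 rose by 1.58 ± 0.25 (log2, SE, adjusted p = 0.00342). Smpd1, the acid sphingomyelinase, rose by 0.46 ± 0.08 (log2, SE, adjusted p = 0.00485), and Pnpla1, which links linoleate to ceramide, by 0.52 ± 0.09 (log2, SE, adjusted p = 0.00512). Sult2b1, which makes cholesterol sulfate, was at 27.6, 30.1 and 30.1 RPKM in WT a, c and d, 32.1 RPKM in the library labelled WT b, and 55.1, 58.4, 37.7 and 69.8 RPKM in icKO a to d. Sult2b1 rose by 0.83 ± 0.15 (log2, SE, adjusted p = 0.00616). Under quantile normalization 8 genes of this list rose and 2 fell, and with a sex term 3 and 2. The 26 eicosanoid and phospholipase genes held 7 rises and 2 falls. Alox15, a lipoxygenase, was at 1.76, 0.404 and 1.08 RPKM in WT a, c and d, 5.19 RPKM in the library labelled WT b, and 16.8, 17.4, 8.06 and 6.08 RPKM in icKO a to d. Alox15 rose by 2.18 ± 0.42 (log2, SE, adjusted p = 0.00751). Alox12, a lipoxygenase of the same family, was at 4.08, 5.83 and 5.71 RPKM in WT a, c and d, 2.48 RPKM in the library labelled WT b, and 1.51, 1.58, 2.82 and 1.88 RPKM in icKO a to d. Alox12 fell by 0.88 ± 0.19 (log2, SE, adjusted p = 0.0139). Pla2g4e, a phospholipase, rose by 1.73 ± 0.32 (log2, SE, adjusted p = 0.00687), and Ptges, which makes prostaglandin E2, by 0.72 ± 0.12 (log2, SE, adjusted p = 0.0038).

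Among 22 glycolysis genes 8 rose and 0 fell (median 0.22), against 9.12% rises among all genes tested. Pgam1, a mutase of lower glycolysis, was at 51.3, 61.6 and 54 RPKM in WT a, c and d, 82.6 RPKM in the library labelled WT b, and 139, 141, 91.5 and 138 RPKM in icKO a to d. Pgam1 rose by 1.02 ± 0.15 (log2, SE, adjusted p = 0.003). Eno1, the enolase of most tissues, was at 7.95, 13.3 and 12.7 RPKM in WT a, c and d, 10.7 RPKM in the library labelled WT b, and 23.7, 23.7, 17.4 and 29.7 RPKM in icKO a to d. Eno1 rose by 1.02 ± 0.17 (log2, SE, adjusted p = 0.0046). Both genes have near-identical copies in the mouse genome, and the sources used here do not say how the authors split reads among copies, so their values are uncertain. Pfkp, which commits sugar to glycolysis, rose by 0.65 ± 0.10 (log2, SE, adjusted p = 0.00327), and the lactate carrier Slc16a1 by 0.54 ± 0.08 (log2, SE, adjusted p = 0.00342), with no overlap of the groups for either. Without the 2 libraries 14 rose, against 17.7% of all genes tested, and with a sex term 4.

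**Figure D3:**
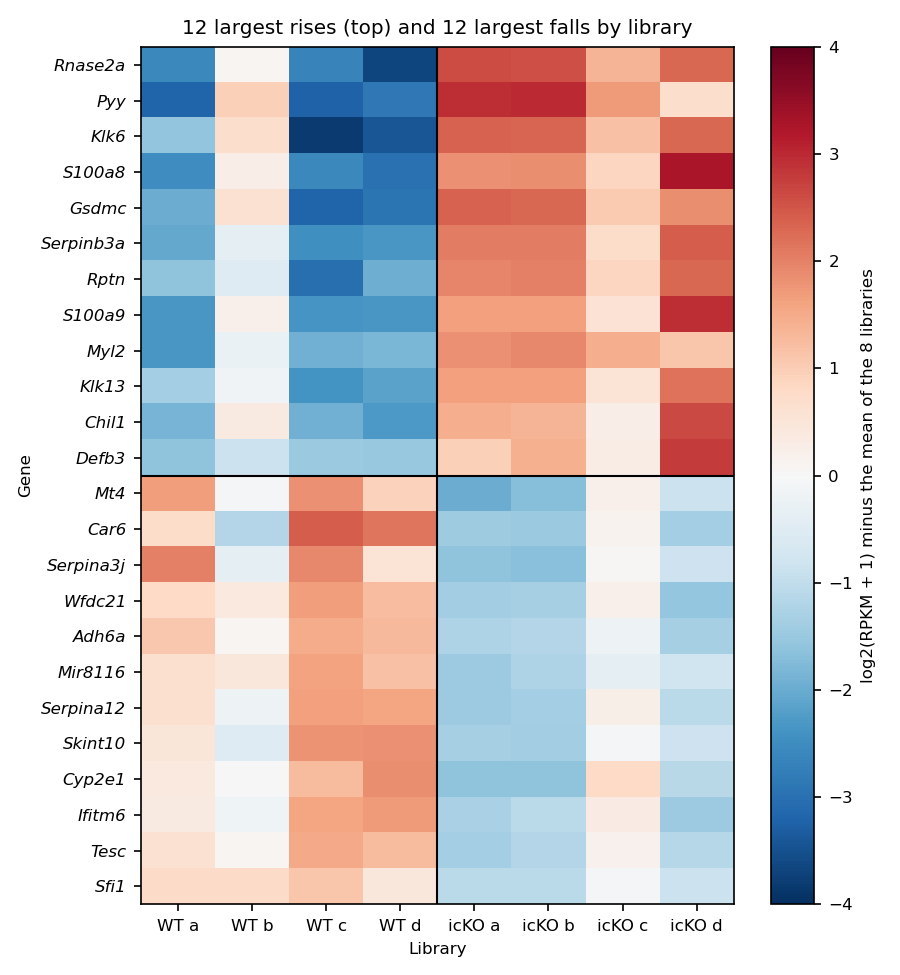
Level of the 12 genes with the largest rises (top) and the 12 with the largest falls (bottom) in each of the 8 libraries, as log2(RPKM + 1) minus the gene's mean over the 8; red is above and blue below that mean. The library labelled WT b and icKO c are paler than the other libraries of their groups in most rows. The rule asked for no overlap only in the other 6 libraries, so this is in part set by the choice of genes.

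The 12 largest rises and 12 largest falls were taken outside the keratins, envelope clusters and cytokines, among genes called with and without the library labelled WT b and icKO c. Of the rises, Rnase2a, a ribonuclease of the eosinophil-associated family, was at 2.99, 2.72 and 0.89 RPKM in WT a, c and d, 24.2 RPKM in the library labelled WT b, and 146, 142, 59.7 and 117 RPKM in icKO a to d. Every icKO library was above every WT library, and the rise was 4.42 ± 0.58 (log2, SE, adjusted p = 0.00215). Gsdmc, a gasdermin, whose family forms membrane pores, was at 1.57, 0.11 and 0.343 RPKM in WT a, c and d, 14.5 RPKM in the library labelled WT b, and 51.8, 49.1, 20.2 and 36 RPKM in icKO a to d. Gsdmc rose by 3.77 ± 0.62 (log2, SE, adjusted p = 0.00428). Chil1, a secreted chitinase-like protein, rose by 2.85 ± 0.54 (log2, SE, adjusted p = 0.00745). Defb3, a beta-defensin that kills microbes, was at 0, 0.0739 and 0.0635 RPKM in WT a, c and d, 0.687 RPKM in the library labelled WT b, and 4.88, 7.06, 2.72 and 20.1 RPKM in icKO a to d. It was tested only because the icKO libraries reached 1 RPKM, and its fitted rise was 2.73 ± 0.37 (log2, SE, adjusted p = 0.00251). Rptn, the repetin of the outer epidermis, was at 9.13 ± 7.16 RPKM in WT and 104 ± 37.6 RPKM in icKO (SD, n = 4 each), and rose by 3.56 ± 0.44 (log2, SE, adjusted p = 0.00184). Rnase2a and Gsdmc belong to families with close copies, and their values are uncertain as to the copy.

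S100a8 and S100a9, which together form calprotectin, are made by neutrophils and by stressed keratinocytes. S100a8 was at 2.18, 2 and 1.25 RPKM in WT a, c and d, 20.5 RPKM in the library labelled WT b, and 62.5, 63.3, 31.3 and 170.1 RPKM in icKO a to d. It rose by 3.89 ± 0.66 (log2, SE, adjusted p = 0.00457) and S100a9 by 3.41 ± 0.57 (log2, SE, adjusted p = 0.00444), and icKO d was the highest library for both. Of 17 neutrophil markers, 11 were below 1 RPKM in all 8 libraries, Ly6g, Elane and Camp among them. The 5 markers tested had 2 rises and 0 falls, with a median of 0.77 (log2). The part of neutrophils in the S100a8 and S100a9 results was not tested. The summed neutrophil list, 294 to 440 RPKM in WT and 474 to 746 RPKM in icKO, holds Asprv1, a protease gene of keratinocytes too, which rose by 0.95 (log2, adjusted p = 0.00527, limma). The S100 and annexin list as a whole had 2 rises, S100a8 and S100a9, and 1 fall, Anxa8 (0.64 ± 0.15, log2, SE, adjusted p = 0.0153), among 22. Its shares, 9.09% and 4.55%, were near the 9.12% and 3.70% of all genes tested.

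Pyy, the gene of the gut hormone peptide YY, was at 0.743, 0.721 and 1.24 RPKM in WT a, c and d, 30.04 RPKM in the library labelled WT b, and 124, 126, 51.1 and 25.4 RPKM in icKO a to d. The library labelled WT b lay above icKO d, and Pyy rose by 4.17 ± 0.81 (log2, SE, adjusted p = 0.0081). Myl2, the regulatory myosin light chain of slow and heart muscle, was at 0, 0.323 and 0.402 RPKM in WT a, c and d, 3.16 RPKM in the library labelled WT b, and 16.8, 17.7, 12.7 and 9.64 RPKM in icKO a to d. Myl2 rose by 3.15 ± 0.44 (log2, SE, adjusted p = 0.00251). Of 29 tested skeletal muscle genes 4 rose and 0 fell; 3 of them, Tnnt1, Tnni1 and Tnnc1, are troponins of slow muscle (named after their values were seen). Tnni1 was at 0.425, 0.299 and 0.22 RPKM in WT a, c and d, 0.523 RPKM in the library labelled WT b, and 5.37, 5.25, 3.46 and 1.62 RPKM in icKO a to d. It was tested only because the icKO libraries reached 1 RPKM, so that its groups could not overlap. The fitted rise of Tnni1 was 1.77 ± 0.35 (log2, SE, adjusted p = 0.00882) in limma. The muscle list had 13.8% rises, against 9.12% among all genes tested, and its median was -0.12. Its summed level overlapped between the groups.

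Of the 12 largest falls, Wfdc21, a small secreted protein of the WAP family, was at 166, 307 and 226 RPKM in WT a, c and d, 124 RPKM in the library labelled WT b, and 36.2, 37.3, 110.5 and 31.9 RPKM in icKO a to d. It fell by 2.04 ± 0.35 (log2, SE, adjusted p = 0.00457), and icKO c was the highest icKO library. Mt4, the metallothionein of stratified epithelia, was at 124, 137 and 72.6 RPKM in WT a, c and d, 35.7 RPKM in the library labelled WT b, and 8.86, 11.1, 43.6 and 20.3 RPKM in icKO a to d. The library labelled WT b lay below icKO c, and Mt4 fell by 2.17 ± 0.46 (log2, SE, adjusted p = 0.0114). Car6, a secreted carbonic anhydrase, fell by 2.06 ± 0.60 (log2, SE, adjusted p = 0.0399), and Cyp2e1, a cytochrome P450, was at 207 ± 119 RPKM in WT and 69.8 ± 67.5 RPKM in icKO (SD, n = 4 each) and fell by 1.77 ± 0.48 (log2, SE, adjusted p = 0.0312). Serpina12 and Serpina3j, both serine protease inhibitors, fell by 1.84 and 2.04, Skint10, of a family that selects skin T cells in mice, by 1.80, Ifitm6 by 1.74, the calcium binding Tesc by 1.73, the centrosomal Sfi1 by 1.54 and the microRNA gene Mir8116 by 1.93 (log2, adjusted p from 0.00251 to 0.0354). Serpina3j and Skint10 have close copies, and a hairpin as short as Mir8116 gives few reads, so these 3 are uncertain. With a sex term 5 of the 12 falls, Wfdc21, Adh6a, Mir8116, Tesc and Sfi1, stayed below an adjusted p of 0.05 in limma, and the other 7 reached at most 0.151.

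Of 32 epidermal proteases and their inhibitors 15 rose and 1, Wfdc21, fell (median 0.66, and 0.55 after quantile normalization). Among all genes tested the shares were 9.12% and 3.70%. Kallikreins, which cut the links between dead cells at the surface, made up 6 of the rises. Klk6 was at 21.9, 3.85 and 5.4 RPKM in WT a, c and d, 110.4 RPKM in the library labelled WT b, and 351, 348, 155 and 342 RPKM in icKO a to d. It rose by 4.08 ± 0.73 (log2, SE, adjusted p = 0.00546), with no icKO library below any WT library. Klk13 rose by 3.01 ± 0.51 (log2, SE, adjusted p = 0.00444) and Klk9 by 1.75 ± 0.25 (log2, SE, adjusted p = 0.00251). Prss27, another serine protease, was at 3.11 ± 1.88 RPKM in WT and 11.6 ± 3.67 RPKM in icKO (SD, n = 4 each), and rose by 1.66 ± 0.28 (log2, SE, adjusted p = 0.00428). Inhibitors rose beside the proteases. Serpinb3a, the mouse relative of human squamous cell carcinoma antigen, was at 0.35, 0.032 and 0.12 RPKM in WT a, c and d, 3.3 RPKM in the library labelled WT b, and 22.1, 22.3, 8.34 and 29.3 RPKM in icKO a to d. Serpinb3a rose by 3.62 ± 0.43 (log2, SE, adjusted p = 0.00135), and is uncertain as to the copy. Slpi, which inhibits elastase, rose by 1.78 ± 0.29 (log2, SE, adjusted p = 0.0038). Without the library labelled WT b and icKO c the list had 20 rises and 2 falls, against 17.7% and 9.58% of all genes tested. With a sex term it had 9 and 2, and in the fit of the 8 alone 3 and 0.

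**Figure D4:**
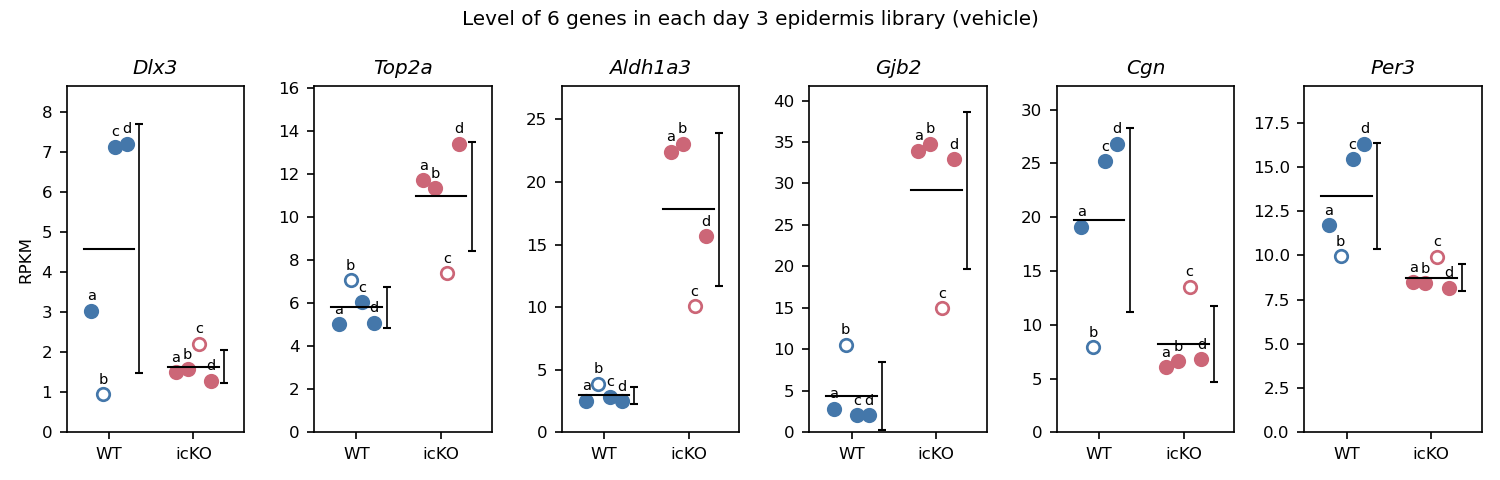
RPKM of 6 genes in each library, labelled a to d, with WT in blue, icKO in red, hollow points for the library labelled WT b and for icKO c, lines at the mean of 4 and bars for the SD. Top2a, Aldh1a3, Gjb2 and Per3 do not overlap between groups, while for Dlx3 and Cgn the hollow points cross.

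Junction genes moved in both directions. Among 11 gap junction genes 3 rose and 1 fell, against 9.12% and 3.70% of all genes tested. Gjb2, which encodes connexin 26, was at 2.84, 2.05 and 2.1 RPKM in WT a, c and d, 10.6 RPKM in the library labelled WT b, and 34, 34.8, 15 and 32.9 RPKM in icKO a to d. The groups did not overlap, and the rise was 2.67 ± 0.39 (log2, SE, adjusted p = 0.0029). Gjb6, for connexin 30, was at 0.595, 0.411 and 0.307 RPKM in WT a, c and d, 1.8 RPKM in the library labelled WT b, and 6.28, 7.12, 2.83 and 7.08 RPKM in icKO a to d. Gjb6 rose by 1.95 ± 0.28 (log2, SE, adjusted p = 0.00251). Gjb5, for connexin 31.1, was at 25.4, 45.5 and 36.9 RPKM in WT a, c and d, 19.6 RPKM in the library labelled WT b, and 13.7, 13.2, 18.4 and 15.6 RPKM in icKO a to d. Gjb5 fell by 0.96 ± 0.20 (log2, SE, adjusted p = 0.0118). So connexins of the same gene family changed in opposite directions in the same libraries, and did so after quantile normalization as well (3 rises, 1 fall).

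Of 21 tight and adherens junction genes 4 fell, against 3.70% of all genes tested, and 1 rose, with a median of -0.20. Cgn, which encodes cingulin of the tight junction plaque, was at 19.1, 25.2 and 26.8 RPKM in WT a, c and d, 7.91 RPKM in the library labelled WT b, and 6.04, 6.6, 13.5 and 6.79 RPKM in icKO a to d. Without icKO c and the library labelled WT b the levels did not overlap; with them Cgn fell by 1.11 ± 0.31 (log2, SE, adjusted p = 0.0343). Cldn23, a claudin, was at 10.01, 17.5 and 16.9 RPKM in WT a, c and d, 6.49 RPKM in the library labelled WT b, and 4.36, 3.68, 8.85 and 3.27 RPKM in icKO a to d. Cldn23 fell by 1.17 ± 0.30 (log2, SE, adjusted p = 0.0249). Marveld2, which seals the corners where 3 cells meet, fell by 0.80 ± 0.22 (log2, SE, adjusted p = 0.0344), and Cldn3 was the other fall. Cldn4 rose by 0.43 ± 0.10 (log2, SE, adjusted p = 0.0181). Without the 2 libraries 9 of the 21 fell and 3 rose, against 9.58% and 17.7% of all genes tested. With a sex term 1 fell, where 556 of all 13095 genes fell. In 16 genes of desmosomes and keratin linkers 1 rise, Dsg1b, and 0 falls were called, a share of 6.25% rises against 9.12% of all genes tested.

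Carriers of ions, water and zinc had 9 rises and 3 falls among 32, against 9.12% and 3.70% of all genes tested. Atp12a, a proton and potassium pump, was at 4.38, 2.34 and 1.8 RPKM in WT a, c and d, 8.33 RPKM in the library labelled WT b, and 23, 23.7, 11.5 and 19 RPKM in icKO a to d. Atp12a rose by 2.08 ± 0.30 (log2, SE, adjusted p = 0.00282). Slc26a9, a chloride carrier, rose by 1.28 ± 0.21 (log2, SE, adjusted p = 0.00416), Scnn1b, a subunit of the epithelial sodium channel, by 0.86 ± 0.15 (log2, SE, adjusted p = 0.00457), and the zinc importer Slc39a2 by 0.83 ± 0.13 (log2, SE, adjusted p = 0.00358). For Atp12a, Slc26a9 and Scnn1b the groups did not overlap. Slc39a2 passed the filter through the icKO libraries alone, so that its groups could not overlap. The falls included Slc12a2 (named after its value was seen) and Mt4.

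Retinoid genes changed at several steps. Retinol is taken up, oxidized to retinal and then to retinoic acid, which sets gene activity in epidermis. Of 28 tested genes 9 rose and 2 fell, against 9.12% and 3.70% of all genes tested. Aldh1a3, which makes retinoic acid from retinal, was at 2.54, 2.87 and 2.49 RPKM in WT a, c and d, 3.9 RPKM in the library labelled WT b, and 22.4, 23.1, 10.1 and 15.7 RPKM in icKO a to d. Its lowest icKO library was above the highest WT library, and it rose by 2.20 ± 0.25 (log2, SE, adjusted p = 0.00125), the lowest adjusted p of all genes the rule named. Aldh1a2, of the same step, was at 1.1, 1.05 and 0.488 RPKM in WT a, c and d, 1.3 RPKM in the library labelled WT b, and 4.98, 5.2, 3.01 and 3.23 RPKM in icKO a to d. Aldh1a2 rose by 1.35 ± 0.17 (log2, SE, adjusted p = 0.00184). Stra6, a receptor that takes up retinol, was at 0.744, 0.327 and 0.618 RPKM in WT a, c and d, 1.18 RPKM in the library labelled WT b, and 6.05, 5.91, 2.6 and 3.8 RPKM in icKO a to d. Stra6 rose by 1.67 ± 0.25 (log2, SE, adjusted p = 0.003). In contrast, Adh6a, an alcohol dehydrogenase, was at 47.7, 64.6 and 55.7 RPKM in WT a, c and d, 23.9 RPKM in the library labelled WT b, and 8.97, 9.47, 19.2 and 8.26 RPKM in icKO a to d. The groups did not overlap, though the library labelled WT b was the lowest WT library and icKO c the highest icKO library, and Adh6a fell by 1.96 ± 0.34 (log2, SE, adjusted p = 0.00475). In the fit of the 8 alone 4 retinoid genes rose and 1 fell, and with a sex term 4 and 1.

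The Adh6a promoter (chr3:138313036-138313335, plus strand, GRCm38.p6, RefSeq) is shown because Adh6a is the member of this list that fell most and its window holds the homeodomain core. Capitals mark TAATT and its reverse complement AATTA, which overlap here in 1 stretch and count as 2 matches.
Adh6a: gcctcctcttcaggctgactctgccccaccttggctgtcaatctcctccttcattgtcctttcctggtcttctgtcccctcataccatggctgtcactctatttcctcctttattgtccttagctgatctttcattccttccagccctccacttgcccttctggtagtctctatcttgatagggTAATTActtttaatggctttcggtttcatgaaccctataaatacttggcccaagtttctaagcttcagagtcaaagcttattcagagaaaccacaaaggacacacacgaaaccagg

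The core was found in 3 of the 9 promoters available for the 12 largest falls (33.3%), in 3 of 11 for the 12 largest rises (27.3%), and in 27.3% of all promoters. Such matches of letters are not measured binding, and Adh6a was shown with its match already seen.

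In signalling, 6 of 20 genes of the EGF receptor family rose and 0 fell, with a median of -0.01. Among all genes tested 9.12% rose. The rises were in ligands and in feedback genes. Hbegf, a ligand, was at 2.11, 2.18 and 1.27 RPKM in WT a, c and d, 3.56 RPKM in the library labelled WT b, and 10.04, 8.82, 5.81 and 5.21 RPKM in icKO a to d, with no overlap and a rise of 1.37 ± 0.26 (log2, SE, adjusted p = 0.00685). Areg rose by 0.87 ± 0.18 (log2, SE, adjusted p = 0.0105). Epgn, for epigen, was at 1.67, 2.27 and 2.47 RPKM in WT a, c and d, 16.3 RPKM in the library labelled WT b, and 32, 33.8, 16.1 and 15.8 RPKM in icKO a to d. Epgn rose by 2.32 ± 0.49 (log2, SE, adjusted p = 0.0112), though the library labelled WT b lay above icKO c and d. Tgfa rose by 0.34 ± 0.11 (log2, SE, adjusted p = 0.0485). Dusp6, a phosphatase that dampens ERK and is switched on by it, was at 13.3, 12 and 8.42 RPKM in WT a, c and d, 16.8 RPKM in the library labelled WT b, and 28.2, 28.6, 22.9 and 20.4 RPKM in icKO a to d. Dusp6 rose by 0.96 ± 0.15 (log2, SE, adjusted p = 0.0038). Of 24 AP-1 and immediate early genes 5 rose and 0 fell, including Junb (0.58 ± 0.14, log2, SE, adjusted p = 0.0183), Jun (0.35 ± 0.09, log2, SE, adjusted p = 0.0299), Ier5 (0.31 ± 0.09, log2, SE, adjusted p = 0.0441) and the antiproliferative Btg2 (0.38 ± 0.09, log2, SE, adjusted p = 0.0152). Under quantile normalization 2 AP-1 and immediate early genes rose and 1 fell, and with a sex term 0 rose.

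Of 31 wound matrix and migration genes 7 rose and 0 fell, against 9.12% rises among all genes tested. Tnc, a matrix protein of healing skin, was at 1.66, 1.75 and 0.764 RPKM in WT a, c and d, 3.69 RPKM in the library labelled WT b, and 10.6, 10.6, 5.3 and 10.4 RPKM in icKO a to d. Tnc rose by 1.83 ± 0.26 (log2, SE, adjusted p = 0.00277), with no overlap. Timp1, which inhibits metalloproteases, was at 2.39 ± 1.41 RPKM in WT and 5.87 ± 1.48 RPKM in icKO (SD, n = 4 each), a rise of 1.09 ± 0.25 (log2, SE, adjusted p = 0.0149). Cd44, the receptor of hyaluronan, rose by 0.85 ± 0.20 (log2, SE, adjusted p = 0.0183), and Vegfa, which drives vessel growth, by 0.44 ± 0.11 (log2, SE, adjusted p = 0.0256). Fibroblasts can make Tnc and Timp1, and the fibroblast sums given above overlapped between groups; their part was not tested. In the TGF-beta and BMP list 3 of 31 rose, including Inhbb (an activin subunit, 1.01 ± 0.15, log2, SE, adjusted p = 0.003), and Bmp4 fell by 0.65 ± 0.15 (log2, SE, adjusted p = 0.0146). Another of the 3 was Tgfa, which the list also held, though it is a ligand of the EGF receptor and not of the TGF-beta family. The Wnt list had 2 rises, Tcf7 (0.49 ± 0.13, log2, SE, adjusted p = 0.0329) and Wif1 (0.68 ± 0.20, log2, SE, adjusted p = 0.0384), and 1 fall, Sfrp2 (1.37 ± 0.42, log2, SE, adjusted p = 0.0455), of 35. The Notch list had 2 rises of 23 and the Hedgehog list 1 rise of 10. In each of these 4 lists the shares, at most 10% rises and 3.23% falls, were near or below those of all genes.

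Transcription factors of keratinocytes had 7 rises and 2 falls among 35, against 9.12% and 3.70% of all genes tested. ETS family members that act in epithelia led them. Elf3 was at 0.19, 0.178 and 0.133 RPKM in WT a, c and d, 0.784 RPKM in the library labelled WT b, and 4.42, 4.1, 1.82 and 3.83 RPKM in icKO a to d. It rose by 1.76 ± 0.25 (log2, SE, adjusted p = 0.00251). Elf3 passed the filter through the icKO libraries alone, so that its groups could not overlap. Elf5 rose by 1.24 ± 0.16 (log2, SE, adjusted p = 0.00215), Ehf by 1.37 ± 0.24 (log2, SE, adjusted p = 0.00475) and Hopx, a homeodomain protein of differentiating epidermis, by 0.70 ± 0.11 (log2, SE, adjusted p = 0.00358). Among 14 homeobox and hair genes Runx1 and Runx3 rose by 0.61 ± 0.13 (log2, SE, adjusted p = 0.0113) and 0.50 ± 0.11 (log2, SE, adjusted p = 0.0123). Dlx5, a relative of Dlx3, was at 5.24, 7.24 and 5.51 RPKM in WT a, c and d, 5.06 RPKM in the library labelled WT b, and 3.63, 3.41, 4.35 and 3.72 RPKM in icKO a to d. The groups did not overlap, and Dlx5 fell by 0.49 ± 0.11 (log2, SE, adjusted p = 0.0136).

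Of 20 circadian clock genes 6 fell, against 3.70% of all genes tested, and 1 rose, with a median of -0.16. Cry2 and Per3 encode repressors of the clock. Cry2 was at 19.6, 20.04 and 20.1 RPKM in WT a, c and d, 17.9 RPKM in the library labelled WT b, and 13.7, 12.9, 16.5 and 13.4 RPKM in icKO a to d. The groups did not overlap, and Cry2 fell by 0.43 ± 0.08 (log2, SE, adjusted p = 0.00527). Per3 was at 11.7, 15.4 and 16.3 RPKM in WT a, c and d, 9.96 RPKM in the library labelled WT b, and 8.5, 8.42, 9.92 and 8.17 RPKM in icKO a to d. Per3 fell by 0.54 ± 0.12 (log2, SE, adjusted p = 0.0138). Tef, an output factor of the clock, was at 53.1, 71 and 69 RPKM in WT a, c and d, 49.3 RPKM in the library labelled WT b, and 42.3, 42.9, 47.8 and 40.8 RPKM in icKO a to d. Tef fell by 0.46 ± 0.11 (log2, SE, adjusted p = 0.0172). Bhlhe40, which represses at E-boxes, rose by 0.71 ± 0.16 (log2, SE, adjusted p = 0.0154). Nr1d2 and Hlf were among the other falls. The core activator Arntl was at 4.38, 4.94 and 3.67 RPKM in WT a, c and d, 3.19 RPKM in the library labelled WT b, and 3.74, 3.81, 4.76 and 4.27 RPKM in icKO a to d. Its difference of 0.04 ± 0.10 (log2, SE, adjusted p = 0.834) in limma did not pass, nor did those of Per1 and Per2 (adjusted p = 0.896 and 0.66). Under quantile normalization 7 fell and 1 rose, and with a sex term 4 fell. In the fit of the 8 alone 0 clock genes were called, and with close pairs averaged 1 fell.

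The E-box CACGTG, where clock activators bind, was found in 5 of 17 clock gene promoters available (29.4%) and in 7.24% of all promoters. Here too the matches are of letters and not measured binding. Tef is shown as a gene that fell and has a match (chr15:81802423-81802722, plus strand, GRCm38.p6, RefSeq; capitals mark CACGTG, which reads the same on both strands).
Tef: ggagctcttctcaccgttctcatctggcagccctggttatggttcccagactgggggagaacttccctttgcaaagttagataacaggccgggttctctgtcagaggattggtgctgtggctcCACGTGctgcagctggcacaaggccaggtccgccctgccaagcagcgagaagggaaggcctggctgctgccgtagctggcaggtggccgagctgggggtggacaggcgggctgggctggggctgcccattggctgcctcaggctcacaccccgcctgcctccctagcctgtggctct

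Of 27 antioxidant genes linked to NRF2 1 rose and 3 fell, against 9.12% and 3.70% of all genes tested. Srxn1, which repairs oxidized peroxiredoxins, rose by 0.64 ± 0.10 (log2, SE, adjusted p = 0.00336). Gsta2, a glutathione transferase with close copies, was at 5.65, 10.2 and 8.26 RPKM in WT a, c and d, 3.13 RPKM in the library labelled WT b, and 2.04, 1.2, 3.12 and 0.77 RPKM in icKO a to d. Gsta2 fell by 1.47 ± 0.29 (log2, SE, adjusted p = 0.00891), and Gstm1 and Prdx6 fell by 0.53 ± 0.14 (log2, SE, adjusted p = 0.0248) and 0.45 ± 0.12 (log2, SE, adjusted p = 0.0304). Of 23 p53-linked genes 6 rose and 2 fell, with Plk3 (0.61 ± 0.14, log2, SE, adjusted p = 0.0146), Btg2 and Pmaip1 (0.78 ± 0.19, log2, SE, adjusted p = 0.0185) among the former and Xpc, a DNA damage sensor, falling by 0.32 ± 0.08 (log2, SE, adjusted p = 0.0198). Of 27 autophagy and lysosome genes 2 rose, Ctsd and Ctsl, a share of 7.41% that is below the 9.12% of all genes tested. Interferon-stimulated genes had 0 of 28 called in limma, with a median of 0.33, and 1 had an unadjusted p below 0.05. Their mean log2 level was 3.28 in WT a and 3.07 in the library labelled WT b; WT c and d had 2.22 and 2.19, and the icKO libraries 2.79 to 3.27. Summed macrophage markers split the WT libraries likewise, at 2140 and 2510 RPKM against 483 and 511 RPKM, with 1680 to 2050 RPKM in icKO; the part of macrophages was not tested. Markers of other resident cells also differed: the 12 melanocyte markers summed to 28.6 to 45.1 RPKM in WT and 47.9 to 56.2 RPKM in icKO, with 3 of 7 tested higher, Dct by 1.16 ± 0.21 (log2, SE, adjusted p = 0.00574). With a sex term, and in the fit of the 8 alone, 0 melanocyte markers were called, and with close pairs averaged 2 rose.

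Without the library labelled WT b and icKO c the other lists gave these counts of rises and falls in limma, against shares of 17.7% and 9.58% among all genes. Among genes of metabolism there were 8 and 0 of 24 for cholesterol, 8 and 3 of 26 for fatty acids, 15 and 2 of 28 for ceramides, 11 and 4 of 26 for eicosanoids, 7 and 2 of 27 for amino acids and polyamines, and 10 and 3 of 28 for retinoids. For stress and defence there were 20 and 1 of 26 for the endoplasmic reticulum, 5 and 6 of 27 for NRF2-linked genes, 13 and 2 of 23 for p53-linked genes, 6 and 0 of 13 for MHC class I, 1 and 0 of 28 for interferon, 8 and 0 of 27 for autophagy and lysosome, and 5 and 1 of 22 for S100 proteins and annexins. Contacts and carriers had 5 and 1 of 11 for gap junctions, 1 and 3 of 16 for desmosomes, and 14 and 4 of 32 for ions, water and zinc. In signalling and transcription the counts were 6 and 6 of 20 for the EGF receptor family, 7 and 1 of 24 for AP-1, 9 and 3 of 31 for wound genes, 4 and 3 of 31 for TGF-beta and BMP, 4 and 6 of 35 for Wnt, 4 and 3 of 23 for Notch, 1 and 0 of 10 for Hedgehog, 8 and 4 of 35 for keratinocyte factors, 4 and 1 of 14 for homeobox and hair genes, and 1 and 7 of 20 for the clock. The EGF receptor list, which had rises alone over the 8 libraries, thus had as many falls as rises over the 6.

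In the fit of the 8 libraries alone limma called 3 protease and inhibitor genes, 2 fatty acid genes, 2 ceramide genes, 2 gap junction genes, 2 genes of ion, water and zinc transport, 2 keratinocyte factors, 1 glycolysis gene and 1 wound gene, all higher, and 4 retinoid genes higher and 1 lower. With close pairs averaged 7 protease genes rose and 1 fell, 6 transport genes rose, 4 genes each rose for ceramides, glycolysis and keratinocyte factors, and 3 genes each for ribosome biogenesis, amino acid supply, fatty acids and eicosanoids. Under that setting 3 retinoid genes rose and 1 fell, 2 genes each rose for gap junctions, the EGF receptor family and S100 proteins, and 1 gene each for cholesterol, the proteasome, heat shock, the endoplasmic reticulum, wound and TGF-beta; 1 NRF2-linked gene rose and 1 fell. The other lists had no call in the setting concerned, apart from the clock fall given above. Over all 13095 genes there were 91 rises and 15 falls in the fit of the 8 alone. With close pairs averaged there were 216 and 34.

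The 2 libraries between the groups did not lie between them evenly. On a scale where 0 is the mean of WT a, c and d and 1 the mean of icKO a, b and d, over the 3569 genes called in limma without them, the median gene of the library labelled WT b was at 0.57 and that of icKO c at 0.53. Both the genes and the scale come from the other 6 libraries, which favours a position between 0 and 1 for a library left out. No other library was placed in this way, so these medians alone do not set the 2 libraries apart. In the library labelled WT b 55.6% of these genes were nearer the icKO mean. Its median was -0.18 over 8 cholesterol genes, -0.11 over 20 ribosome biogenesis genes, 0.07 over 21 proteasome genes and 0.33 over 26 mitosis genes, whereas it was 0.65 over 8 clock genes, 0.80 over 15 p53-linked genes and 0.82 over 12 tight and adherens junction genes. The medians of icKO c over the same lists were 0.22, 0.40, 0.21, 0.37, 0.56, 0.45 and 0.41. The position of the library labelled WT b thus ranged more widely between lists; this difference was not tested. Lists of like function were not always close: its median was 0.46 over 6 gap junction genes, and 0.49 over 9 genes of amino acid supply against -0.11 for ribosome biogenesis.

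**Figure D5:**
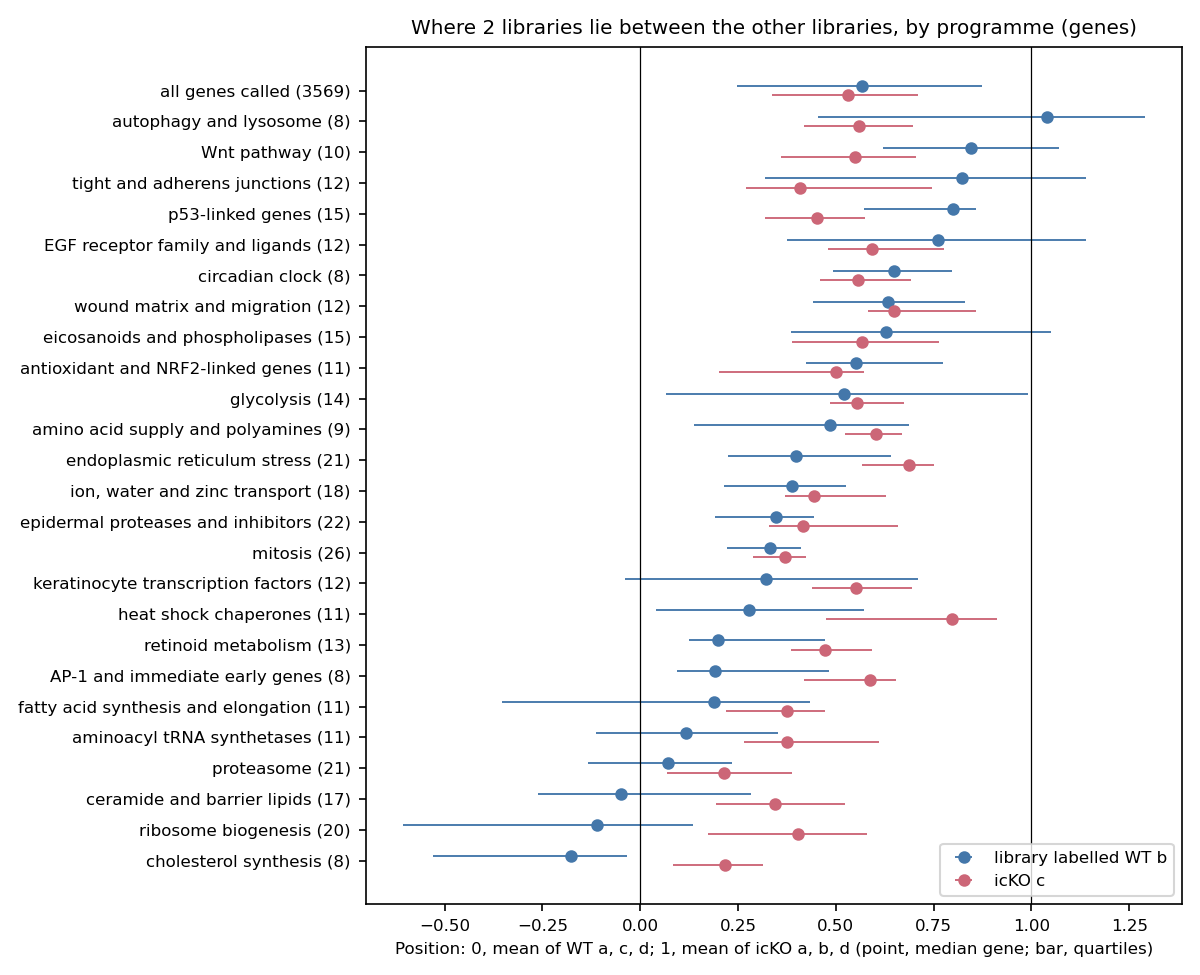
Position of the library labelled WT b (blue) and of icKO c (red) between the other libraries, for genes called without these 2, in lists with at least 8 such genes and with the number in brackets; 0 is the mean of WT a, c and d, 1 the mean of icKO a, b and d, points are the median gene and bars run from the lower to the upper quartile. The blue points run from -0.18 for cholesterol synthesis to 1.04 for autophagy and lysosome, and the red points from 0.21 to 0.80.

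The change in icKO epidermis was also compared between vehicle and STAT3 inhibitor skin, as the change without minus the change with inhibitor in 1 limma model. This difference passed at 284 genes (2.17%), and at 6 of the 132 genes named by the rule. It passed at 1522 genes without the library labelled WT b and icKO c, at 14 with a sex term and at 0 with close pairs averaged, and none of the 6 passed with a sex term, with close pairs averaged, or without icKO a or icKO b. With inhibitor, the 3 WT libraries were male by Ddx3y (9.13 to 10.3 RPKM) and the 4 icKO libraries female by Xist (13.1 to 14.8 RPKM). Genotype and sex therefore cannot be told apart among the inhibitor libraries. Pyy, described above, had means with inhibitor of 42.1 RPKM in WT and 18.3 RPKM in icKO, and the difference was 5.45 ± 1.19 (log2, SE, adjusted p = 0.0402). Myl2 had 8.09 RPKM in WT and 5.65 RPKM in icKO with inhibitor, a difference of 3.58 ± 0.64 (log2, SE, adjusted p = 0.0294). For Stra6 the means with inhibitor were 5.17 RPKM in WT and 3.6 RPKM in icKO, a difference of 2.05 ± 0.37 (log2, SE, adjusted p = 0.0294). Sult2b1 and Idi1 went the other way, with means with inhibitor of 24.1 RPKM in WT and 89 RPKM in icKO for Sult2b1 and 29.7 RPKM in WT and 73.9 RPKM in icKO for Idi1, and differences of -0.998 ± 0.22 (log2, SE, adjusted p = 0.0414) and -0.81 ± 0.16 (log2, SE, adjusted p = 0.0353). Dlx5 had 3.53 RPKM in WT and 5.31 RPKM in icKO with inhibitor, a difference of -0.97 ± 0.16 (log2, SE, adjusted p = 0.0239). For Aldh1a3, Gjb2, Cgn and Per3 the difference did not pass (adjusted p = 0.392, 0.822, 0.532 and 0.489), which does not show that they changed alike.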

How the data were processed

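RNA was read from 8 vehicle-treated day 3 epidermis libraries, within a table of 15 that also holds inhibitor-treated skin. Per the file headers, the authors mapped reads to mm10 with TopHat and calculated the deposited RPKM values in Partek; the submitters' processing notes name TopHat2 2.1.0. Kits were NEBnext for cDNA and NuGen for libraries. The sources used here do not state how shared reads were counted or whether strand was kept; overlapping and antisense genes cannot be told apart, and no counts were used.

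Values were analysed as log2(RPKM + 1) in limma 3.58.1 (R 4.3.3), with empirical Bayes moderation and an intensity trend, in a fit of all 15 libraries, for 13095 of 24543 genes at 1 RPKM or more in at least 4 of the 8. Benjamini-Hochberg adjustment ran over these genes, with 0.05 as the threshold. The fit was tested on simulated data. Inhibitor libraries numbered 3 WT and 4 icKO, and the genotype by inhibitor difference came from the same fit.

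The 36 programme lists and 18 cell type lists were written from general knowledge, and the libraries and lists were chosen with earlier results of these data known. Genes were named by rule: Dlx3; the 12 genes that rose most and the 12 that fell most, past the threshold with and without columns S2 (labelled WT b) and S7 (icKO c), not overlapping in the other 6, at 5 RPKM or more in the higher group, leaving out keratins, envelope and stefin clusters, cytokines, sex-linked, mitochondrial and predicted genes; and, by adjusted p, the first 4 of each programme list with at least 3 calls. All other genes named were chosen after their values were seen, whether or not this is said beside them. Results of a few genes are not reported here. Groups follow the table headers, which name genotype and treatment. Alternatives were the pseudocount, the filter, quantile and upper quartile scaling, no trend, a fit of the 8 alone, a sex term (Xist and Ddx3y at 1 RPKM, a library with both set to 0.5), libraries left out, and close pairs averaged. Promoter sequences are from RefSeq on GRCm38.p6, 1 listed start per gene.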

Additional observations from a re-analysis of the deposited data

Results flagged for a closer look

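Among the 132 genes named by the rule, each group of 4 libraries was searched for a library far from its 3 companions, and 43 of 264 groups held one. Chance gives about 1 in 20 for independent values that were not selected, which is no chance value here: 19 of the 43 lie in the 24 largest changes, which had to pass without the library labelled WT b and icKO c, and icKO a and b are nearly alike. The library labelled WT b stood apart above the other WT libraries at 15 genes: Rnase2a (24.2 RPKM), Pyy (30 RPKM), Klk6 (110 RPKM), S100a8 (20.5 RPKM), Gsdmc (14.5 RPKM), Serpinb3a (3.3 RPKM), S100a9 (26 RPKM), Myl2 (3.16 RPKM), Chil1 (15.8 RPKM), Defb3 (0.687 RPKM), Smox (17.9 RPKM), Epgn (16.3 RPKM), Gjb2 (10.6 RPKM), Slpi (3.12 RPKM) and Elf3 (0.784 RPKM). Library icKO c stood apart below the other icKO libraries at 16 genes: Klk6 (155 RPKM), Ddx21 (15 RPKM), Cars (14.6 RPKM), Smpd1 (40.2 RPKM), Ptges (24.6 RPKM), Pla2g4e (9.12 RPKM), Pgam1 (91.5 RPKM), Hspa4 (33.2 RPKM), Bhlhe40 (27.5 RPKM), Inhbb (7.63 RPKM), Tnc (5.3 RPKM), Cd44 (28.3 RPKM), Cldn4 (36 RPKM), Gjb2 (15 RPKM), Prss27 (6.18 RPKM) and Pdia3 (140 RPKM). It stood apart above them at 11 genes that were lower in icKO: Car6 (2.71 RPKM), Wfdc21 (110 RPKM), Adh6a (19.2 RPKM), Serpina12 (18.2 RPKM), Cyp2e1 (171 RPKM), Ifitm6 (30.5 RPKM), Tesc (11 RPKM), Sfi1 (35.8 RPKM), Gstm1 (95.1 RPKM), Prdx6 (58.7 RPKM) and Cgn (13.5 RPKM). WT d stood apart once, at Tcf7 (4.86 RPKM against 3.28 to 3.5 RPKM). The cause was not tested.

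The change in icKO epidermis differed between vehicle and inhibitor skin, in the limma interaction, at 6 named genes. The change without minus the change with inhibitor was 5.45 for Pyy, 3.58 for Myl2, 2.05 for Stra6, -0.806 for Idi1, -0.998 for Sult2b1 and -0.968 for Dlx5 (log2). None of the 6 passed without icKO a or icKO b, with a sex term or with close pairs averaged. The vehicle libraries set apart above enter each of these differences. For Pyy, Myl2 and Stra6 the levels are those given in the comparison of the inhibitor.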

How the results depend on the processing

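No paired analysis was possible because the columns of the table carry no replicate numbers. The number of genes higher and lower in icKO, 1194 and 485, was 91 and 15 in a fit of the 8 libraries alone, 216 and 34 with close pairs averaged, 468 and 556 with a sex term, and 2314 and 1255 without the library labelled WT b and icKO c. Without 1 library it ranged from 376 (icKO b) to 1890 (the library labelled WT b) higher and from 79 to 1120 lower; it was 386 and 84 without icKO a, 494 and 148 without WT d, 594 and 200 without icKO d, and 1704 and 737 without icKO c, and 232 were lower without WT c. A filter of 5 RPKM gave 321 lower, quantile normalization 1030 and upper quartile scaling 886 (with 871 higher). Choices added after seeing the data left out the library labelled WT b and icKO c: the other 6 alone gave 1072 and 471, averaging icKO a and b 1269 and 627, and both together, on 5 libraries, 317 and 72. The cause was not tested, except that fits of fewer libraries have fewer degrees of freedom. The change with and without inhibitor differed at 284 genes, at 115 with no filter, 430 under upper quartile scaling, 1522 without the library labelled WT b and icKO c, 156 when icKO a and b were then averaged too, 14 with a sex term and 0 in limma with close pairs averaged (2432 at an unadjusted p below 0.05). Without 1 library it ranged from 11 (icKO a, and also icKO b) to 1679 (the library labelled WT b), with 1358 without WT a, 121 without WT c, 114 without WT d, 71 without icKO c and 504 without icKO d. The other alternatives stayed within 1.5 times. No named gene changed sign under any alternative. Of the 132 named genes, 131 of which passed, 26 kept their side of the threshold in the fit of the 8 alone, 63 with close pairs averaged, 77 with a sex term, 83 without icKO b, 86 without icKO a, 102 without WT d and 125 or more under quantile or upper quartile scaling. The RPKM table gives no read counts, so low genes carry counting error that was not estimated per gene.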

Other observations

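The calls in cell type lists beyond those given above are set against 9.12% rises and 3.70% falls among all genes. Without the library labelled WT b and icKO c these shares were 17.7% and 9.58%. Adipocyte genes had 0 rises and 2 falls (Car3 and Aqp7, named after their values were seen) among 16, with a median change of -0.44 (log2). Their summed level was 3930 to 6000 RPKM in WT and 2620 to 4590 RPKM in icKO libraries, and without the library labelled WT b and icKO c, 12 of the 16 fell and 1 rose in limma. Schwann cell and nerve genes had 2 rises and 3 falls among 13, the falls including the myelin genes Prx and Mal (named after their values were seen). Basal keratinocyte genes had 0 rises and 2 falls among 14, hair follicle stem cell genes 1 rise and 2 falls among 15, and differentiated keratinocyte genes 5 rises and 2 falls among 13. The summed stem cell list was 1070 to 3100 RPKM in WT and 895 to 1290 RPKM in icKO libraries.

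Mast cell genes had 7 rises and 1 fall among 9, with sums of 88 to 117 RPKM in WT and 143 to 165 RPKM in icKO. With a sex term 1 of them rose and 1 fell, in the fit of the 8 alone 4 rose, and with close pairs averaged 2 rose. Of 13 Langerhans and dendritic cell genes 2 rose and 0 fell, and without the 2 libraries 11 rose. Macrophage genes had 1 rise and 1 fall among 18, and 13 rises and 1 fall without the 2 libraries. T cell genes had 1 rise among 13, neutrophil genes 2 rises among 5, fibroblast genes 2 rises among 18 (Col6a2 and Postn), and endothelial genes 1 rise among 16 (Lyve1). The inner root sheath list had 1 rise (Tchh) among 3 tested of 14 and the hair shaft list 1 fall (Krt32) among 6 tested of 20. Over all 14 inner root sheath genes the mean log2(RPKM + 1) was 0.702 to 0.859 in WT libraries. In icKO a to d it was 2.125, 2.141, 1.668 and 0.902. For all 20 hair shaft genes it was 0.469 to 0.805 in WT, and 1.253, 1.249, 0.946 and 0.547 in icKO a to d. The summed levels of each list overlapped between the groups, and these means were not tested. Red blood cell genes had 0 calls in limma among 6, and 0 at an unadjusted p below 0.05.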
